A study of Mus musculus with 2 samples.

Results

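The ADAM, ADAMTS and ADAMTS-like genes of cultured mouse skin fibroblasts were compared between a library from cells given vehicle and a library from cells given IL-17A, an inflammatory cytokine that acts on fibroblasts through a receptor made with Il17ra and Il17rc. Members were all rows of the count table whose gene symbol begins with Adam and a digit or with Adamts, which gave 40 of 19674 rows: 17 ADAM, 18 ADAMTS and 5 ADAMTS-like genes. Of these, 30 reached 50 counts in the sum of the 2 libraries and are termed measured below, and 10 lay under that minimum. Both cultures were the wild-type line labelled MDFB, described as skin fibroblasts, from a single batch. Neither the dose and time of IL-17A nor the way the line was derived is stated in the labels. Each group was 1 library, so no difference below has a replicate check or a p-value. The 95% intervals cover counting error only and leave out the spread between cultures. PCR duplicates are counted as reads, so the intervals can be too narrow even for counting error.

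ADAM proteins are membrane-anchored metalloproteinases that cut the outer part of other membrane proteins and release it, a step called shedding. ADAMTS proteins are their secreted relatives, which carry thrombospondin repeats, bind the extracellular matrix and cut proteoglycans, procollagens and other matrix proteins. ADAMTS-like proteins share the repeats and have no protease domain, and some ADAM proteins, among them those of Adam11, Adam22 and Adam23, have no working catalytic site, so that not every member is a protease. In skin these families are known for release of growth factors and cytokines, for collagen maturation and for turnover of versican.

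The vehicle library held 24427027 counts and the IL-17A library 23559416, and a count of 0 allowed up to 3 counts, or 0.123 and 0.127 CPM, counts scaled by library size. The fibroblast markers Col1a1, Col1a2, Col3a1, Vim, Pdgfra, Thy1, Lum and Twist2 were all measured, with summed levels of 54972 CPM with vehicle and 37201 CPM with IL-17A. Most of that sum came from Col1a1, Col1a2 and Col3a1, with log2 ratios of -0.64, -0.46 and -0.82. Vim stood at -0.59, Pdgfra at -0.06, Thy1 at 0.00 and Lum at 0.19, and Twist2 was 2.23-fold higher. Keratinocyte and T cell markers were under the minimum in all cases, and 2 of the 4 T cell markers in the table, Cd3d and Cd3e, had 0 counts in both libraries. Macrophage and other myeloid markers were present, all 6 measured, at 194 and 267 summed CPM, of which Lyz2 alone held 153 and 227. Mural cell markers summed to 259 and 116 CPM. Endothelial markers summed to 5.24 and 4.91 CPM, and those of melanocytes and Schwann cells to 8.44 and 6.65 CPM. In bulk RNA, fewer cells of a type and less RNA per cell cannot be told apart. The known IL-17 targets Cxcl1, Lcn2, Il6 and Mmp3 were each more than 2-fold higher in the IL-17A library, while Il17ra and Il17rc had log2 ratios of -0.02 and -0.00.

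The members went both ways, and the secreted ADAMTS genes spanned a wider range than the membrane ADAM genes. In the IL-17A library, Adamts7, Adamts4 and Adamts9 were at least 2-fold higher, while Adamts15, Adamts16, Adamts17, Adamtsl1, Adamts1, Adamtsl4, Adamtsl2, Adamts5 and Adam22 were at least 2-fold lower. That is 3 of 30 measured members higher, 10% against 5.19% of all 13534 measured genes, and 9 lower, 30% against 3.69%. The median log2 ratio of the members was -0.30, beside 0.00 for all measured genes, and 21 of 30 lay below 0, 70% against 49.7%. The median size of the log2 ratio, without its sign, was 0.25 for the 11 ADAM genes, 1.38 for the 14 ADAMTS genes, 1.41 for the 5 ADAMTS-like genes and 0.21 for all measured genes. ADAM log2 ratios ran from -1.13 to 0.89, and ADAMTS log2 ratios from -3.41 to 2.33. The whole counting interval lay above 1 for 7 members and below 1 for 18, beside 28.7% and 26.5% of all measured genes, and held 1 for 5.

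**Figure D1:**
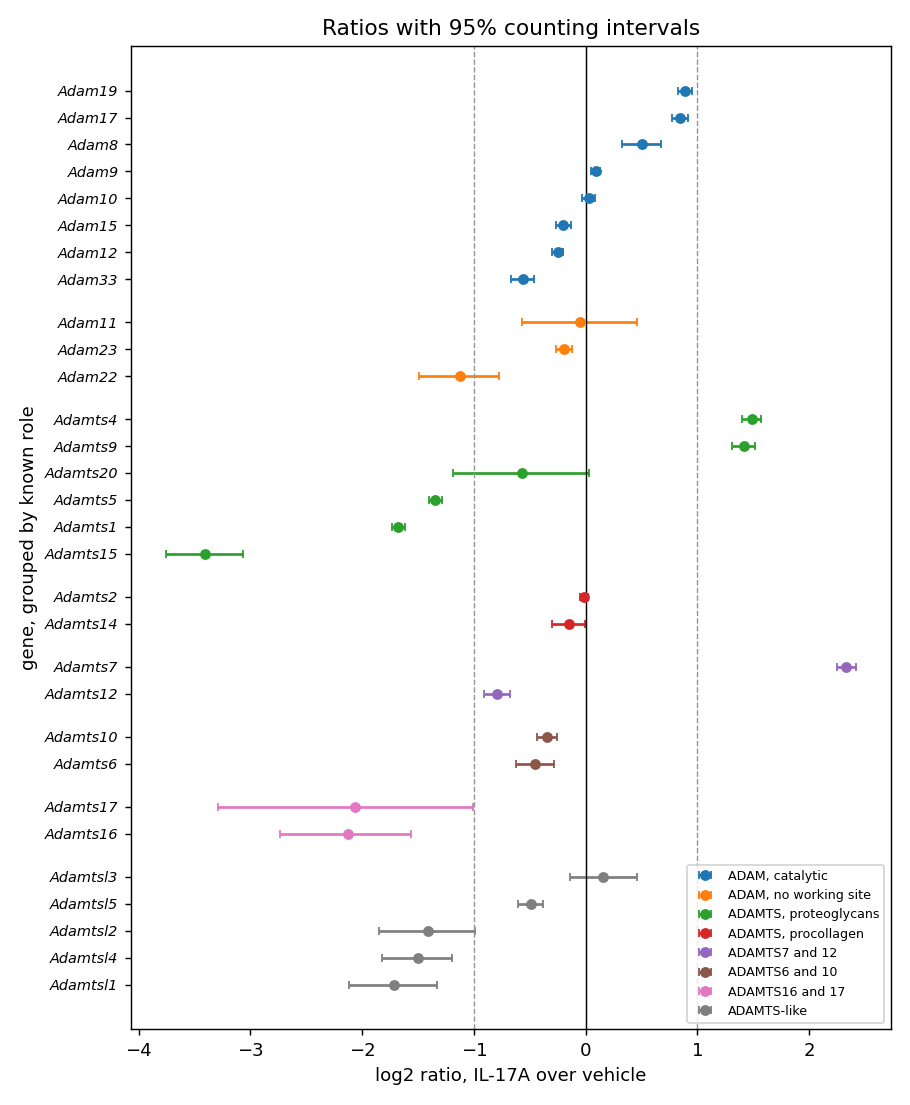
Log2 ratio of IL-17A over vehicle (x axis) for the 30 measured members, grouped by the known role of the protein (y axis, colours); points are single-library ratios and bars the 95% counting intervals, with dashed lines at 2-fold. The 8 catalytic ADAM genes stay between the dashed lines, whereas the proteoglycan-cutting ADAMTS genes lie on both sides, from Adamts4 at 1.49 to Adamts15 at -3.41.

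Levels of different genes were compared as TPM, transcripts relative to all transcripts of a library, which divides by the summed exon length of each GENCODE M21 gene model. TPM does not use the library scaling behind the ratios but its own total of counts per exon length, so a gene's pair of TPM values differs from its ratio. The difference is the same factor for every gene and makes the IL-17A level look lower in TPM than in the ratio. For Adam9 the ratio was 1.06, although its TPM was slightly lower with IL-17A. With vehicle, Adam9 was the most abundant member at 348 TPM, followed by Adamts1 at 286, Adamts2 at 226, Adam10 at 138, Adamts5 at 134 and Adam12 at 107. With IL-17A, Adam9 was still first at 341 TPM and Adamts2 next at 206, and Adamts7 came after it at 138, ahead of Adam10 at 130, Adamts4 at 119 and Adam19 at 115. Adamts1 and Adamts5 stood at 82.4 and 48.7 TPM there. The lowest measured member in both libraries was Adamts17, at 0.753 and 0.165 TPM. In all, 22 measured members exceeded 10 TPM with vehicle and 19 with IL-17A.

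**Figure D2:**
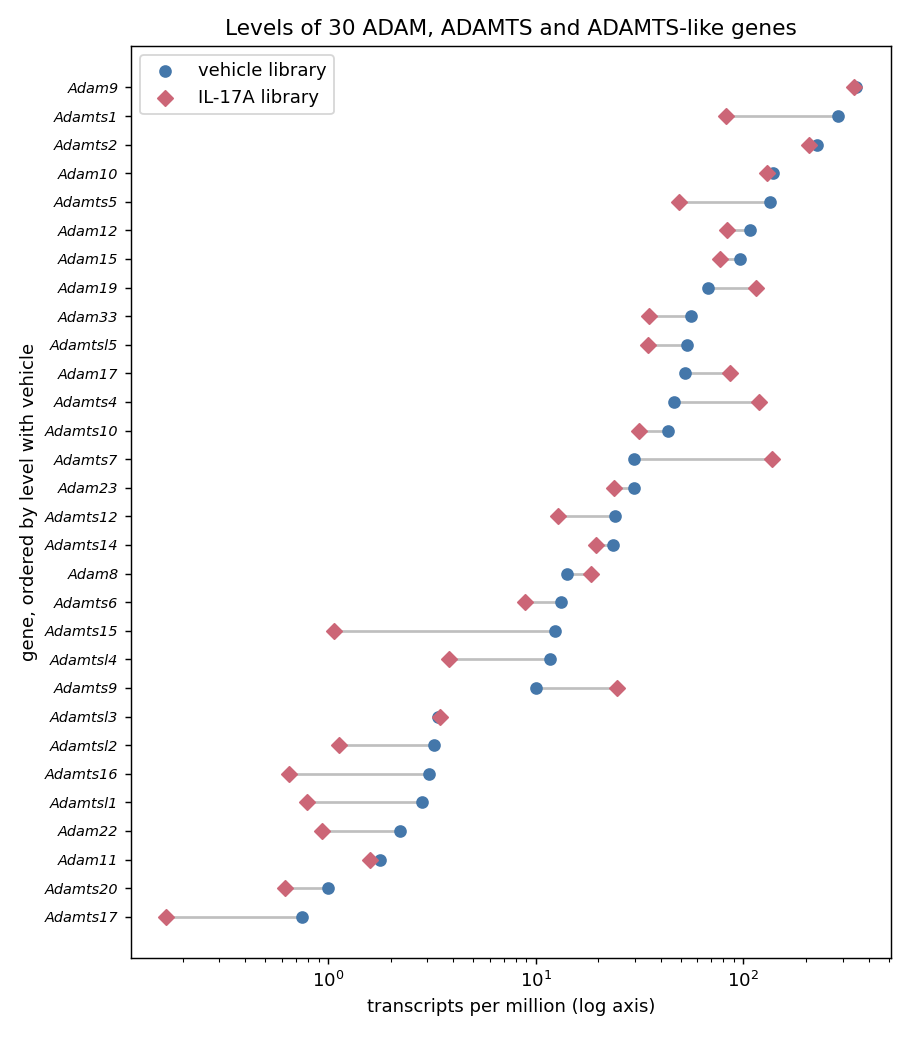
Level of each measured member in TPM (x axis, log scale), with genes ordered by their level with vehicle (y axis); circles are the vehicle library and diamonds the IL-17A library, 1 each. Adam9 and Adamts2 have nearly overlying symbols, Adamts7 moves from 29.7 to 138, and Adamts15 from 12.4 to 1.07.

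Promoter sequence is shown for a pair of proteoglycan-cutting genes of opposite direction, Adamts9 and Adamts1, and for Adam19, which had the highest ratio of the ADAM genes. The RefSeq table (GRCm38.p6) held promoter windows for 18 of the 30 measured members, each 250 bases before to 50 after an annotated start. Both strands were searched for the NF-kB consensus, for TGANTCA (AP-1) and for TTGCNNAA (C/EBP), since NF-kB, AP-1 and C/EBP factors are known to act in IL-17 signalling. Below are the 250 bases before the start, 5′ to 3′ on the gene's strand, with matches in capitals, at chr6:92943535-92943784 (minus strand) for Adamts9, chr11:46055734-46055983 (plus strand) for Adam19 and chr16:85803114-85803363 (minus strand) for Adamts1.
Adamts9: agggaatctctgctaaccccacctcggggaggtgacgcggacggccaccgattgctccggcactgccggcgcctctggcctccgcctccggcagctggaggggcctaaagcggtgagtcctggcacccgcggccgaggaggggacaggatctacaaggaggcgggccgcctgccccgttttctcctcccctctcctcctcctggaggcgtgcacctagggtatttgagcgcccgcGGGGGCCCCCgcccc
Adam19: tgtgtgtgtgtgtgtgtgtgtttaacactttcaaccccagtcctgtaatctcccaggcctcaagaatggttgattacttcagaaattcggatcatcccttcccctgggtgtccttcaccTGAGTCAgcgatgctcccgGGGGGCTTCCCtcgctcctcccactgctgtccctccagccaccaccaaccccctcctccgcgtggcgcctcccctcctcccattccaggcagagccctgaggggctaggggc
Adamts1: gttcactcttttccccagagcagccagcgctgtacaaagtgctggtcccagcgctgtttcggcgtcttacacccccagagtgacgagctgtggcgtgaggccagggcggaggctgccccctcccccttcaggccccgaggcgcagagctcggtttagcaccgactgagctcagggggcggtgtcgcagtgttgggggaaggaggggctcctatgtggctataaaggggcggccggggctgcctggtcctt
Adamts9 had an NF-kB consensus match that begins 15 bases before the start and reads the same on both strands. Adam19 had TGANTCA beginning 131 bases before this start and NF-kB consensus matches beginning 112 and 111 bases before it, which overlap each other. This Adam19 window was the one shown because it had the most matches. The other 2 RefSeq windows of Adam19 had no match to any of the 3 motifs. Adamts1 had none in its window, nor had Adam17, the ADAM gene with the next highest ratio, whose window is not shown. Over the 18 members, 4 had the NF-kB consensus in at least 1 window, beside 9.55% of 27025 genes, 1 had TGANTCA, beside 8.97%, and 2 had TTGCNNAA, beside 12.2%. The NF-kB consensus was found in the 1 higher member with a window, Adamts9, in 1 of 5 lower members, Adamtsl2, and in 2 of 12 within 2-fold. Adamts4 and Adamts7 were not searched. A match describes these letters and not a bound site.

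Among the proteoglycan-cutting ADAMTS genes, Adamts1 and Adamts5 were lower and Adamts4 and Adamts9 higher. Adamts1, which encodes a protease of versican and aggrecan, had 10640 vehicle counts and 3062 after IL-17A, 3.20-fold lower (95% counting interval 3.07 to 3.33). Adamts5, the aggrecanase also known for versican turnover in skin, had 10165 and 3686 counts, 2.54-fold lower (2.44 to 2.64). Adamts4, the other classical aggrecanase, had 1556 and 4011 counts, 2.80-fold higher (2.64 to 2.97). The direction thus differed between the aggrecanases Adamts4 and Adamts5, and their counting intervals lie far apart.

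Adamts9, a versican protease that is widely expressed in connective tissue, had 1060 vehicle counts and 2602 after IL-17A, 2.67-fold higher (2.48 to 2.87). Adamts15, another versican and aggrecan protease, had 898 and 78 counts, 10.6-fold lower (8.40 to 13.5), the lowest ratio of any measured member and the 30th lowest of all 13534 measured genes. Adamts20, known for its part in melanoblast migration through skin, was near the minimum with 63 and 39 counts and an interval that held 1. Adamts8 was under the minimum with 19 and 22.

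Summed over all 7 genes of this class, the level was 491 TPM with vehicle and 277 TPM with IL-17A. With vehicle, Adamts1 made up 58.3% of that sum, Adamts5 27.4%, Adamts4 9.40%, Adamts15 2.52% and Adamts9 2.05%. With IL-17A, Adamts4 was first at 42.9%, then Adamts1 at 29.7%, Adamts5 at 17.6% and Adamts9 at 8.90%, with Adamts15 at 0.387%. The class was therefore lower in sum and different in composition, with Adamts4 above both Adamts1 and Adamts5 in the IL-17A library only.

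**Figure D3:**
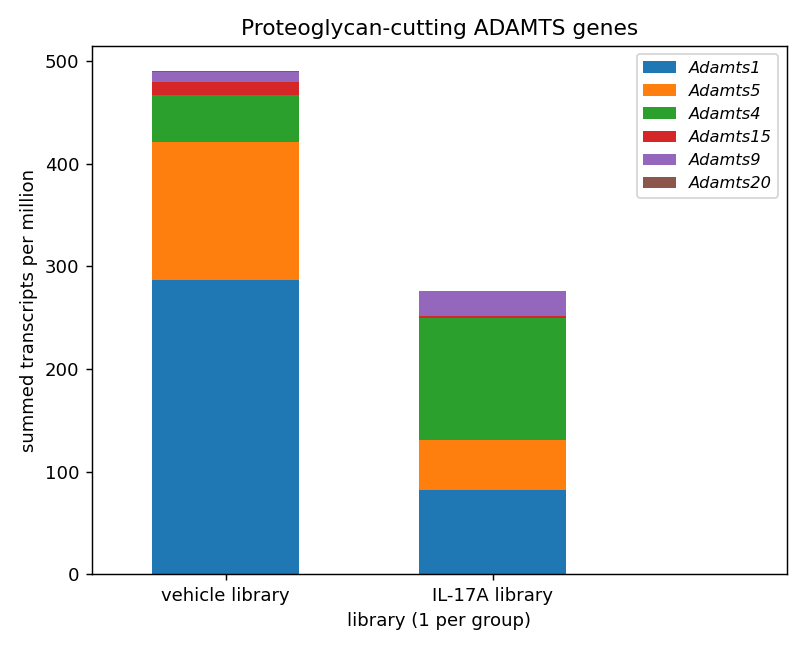
Summed TPM (y axis, from 0) of the 6 measured proteoglycan-cutting ADAMTS genes in each library (x axis), with 1 colour per gene. The vehicle bar is mostly Adamts1 and Adamts5, and the IL-17A bar is shorter, with Adamts4 as its largest segment at 119.

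Adamts1 and Adamts5 are neighbours on chromosome 16, on the same strand with 53.1 kb between them (Adamts1 at 85793827 to 85803113 and Adamts5 at 85856173 to 85901828, GRCm38, GENCODE M21), and both were lower. Adamts15 and Adamts8 are neighbours on chromosome 9, on opposite strands with 20.1 kb between them (30899155 to 30922452 and 30942562 to 30963838). Of that pair Adamts15 was 10.6-fold lower, whereas Adamts8 was under the minimum, with an interval that held 1. Adamts4 lies on chromosome 1 at 171250421 to 171260637 and Adamts9 on chromosome 6 at 92772699 to 92943492. Without a stated strand setting, reads from a gene on the other strand cannot be told apart where exons overlap: A730049H05Rik, with 13 and 10 counts, overlaps 9.18% of the exon length of Adamts9. Of the 4 measured mural cell markers, 2 were at least 2-fold lower in the same library, beside 3.69% of all measured genes. Cspg4, with 2908 and 1070 counts, was 2.50-fold lower and Notch3, with 692 and 167, 3.81-fold lower. Mcam and Des were within 2-fold, at -0.93 and -0.34 on the log2 scale, and Rgs5 was under the minimum with 21 and 6 counts. The part of mural cell markers in the lower ADAMTS genes was not tested.

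The highest ratio of any member was that of Adamts7. Adamts7, which encodes a protease of cartilage oligomeric matrix protein and of thrombospondin-1, had 1308 vehicle counts and 6061 after IL-17A, 5.04-fold higher (95% counting interval 4.74 to 5.35), the 169th highest of all measured genes. Adamts12, its closest relative in the family, had 1853 and 984 counts and stood at -0.79 on the log2 scale (-0.91 to -0.68), within 2-fold. The pair pointed in opposite directions, and Adamts7 made up 55.1% of their summed TPM with vehicle and 91.5% with IL-17A. Adamts7 lies on chromosome 9 at 90163069 to 90208071, and 122 bases of its exons, 1.94% of their length, overlap Tbc1d2b on the opposite strand, whose log2 ratio was 0.62.

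The procollagen-processing genes differed little. Adamts2, the main procollagen N-propeptidase of skin, had 14795 vehicle counts and 13461 after IL-17A, the highest counts of any member, and a log2 ratio of -0.02 (-0.05 to 0.02). Adamts14, which has the same activity, had 858 and 711 counts and a log2 ratio of -0.15 (-0.30 to -0.01). Adamts3, the remaining gene of this class, was under the minimum with 11 and 16 counts. Adamts2 held 90.5% of the summed TPM of the class with vehicle and 91.2% with IL-17A.

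Adamts6 and Adamts10, whose proteins are known to act on fibrillin microfibrils, were both within 2-fold and below 0. Adamts10 had 2513 and 1817 counts and a log2 ratio of -0.35 (-0.44 to -0.26). Adamts6 had 725 and 487 counts and a log2 ratio of -0.45 (-0.62 to -0.29).

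Of the 4 less studied ADAMTS proteases in the table, all low in both libraries, Adamts16 and Adamts17 were measured and at least 2-fold lower with IL-17A. Adamts16 had 147 vehicle counts and 31 after IL-17A, 4.36-fold lower (95% counting interval 2.95 to 6.65). Adamts17, a gene in which mutations cause a short-stature syndrome, had 41 and 9 counts, exactly the minimum of 50, and was 4.19-fold lower (2.01 to 9.81). Adamts18 lay just outside the minimum with 36 and 3 counts, a ratio of 11.0-fold lower with a counting interval of 3.49 to 56.0, and Adamts19 had 1 and 0 counts and an interval that held 1. Neither Adamts18 nor Adamts8, with 41 summed counts the next gene under the minimum, enters the counts of members.

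Of the ADAMTS-like genes, which encode matrix proteins without protease activity, 3 of 5 were at least 2-fold lower and 0 higher, beside 3.69% and 5.19% of all measured genes. Adamtsl1 had 254 and 71 counts, 3.29-fold lower (2.52 to 4.35). Adamtsl4, which encodes a fibrillin-binding protein needed for the lens zonule, had 345 and 112, 2.83-fold lower (2.28 to 3.54). Adamtsl2, whose product binds fibrillin and a latent TGF-beta binding protein, had 182 and 63, 2.66-fold lower (1.99 to 3.60). The most abundant of the class, Adamtsl5, had 1762 and 1152 counts and a log2 ratio of -0.49 (-0.60 to -0.38), and Adamtsl3, with 183 and 188 counts, stood at 0.16 with an interval from -0.14 to 0.46. Their summed level was 74.4 TPM with vehicle and 44.0 TPM with IL-17A.

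None of the 8 measured catalytic ADAM genes reached 2-fold, as was the case for 12332 of all 13534 measured genes. Their summed level was 880 TPM with vehicle and 886 TPM with IL-17A. With the library scaling behind the ratios, which TPM does not use, their summed counts were 1.10-fold higher (1.08 to 1.11). The highest ratios were those of Adam19 and Adam17. Adam19, which encodes a sheddase of neuregulin, had 3378 and 5749 counts, 1.85-fold higher (95% counting interval 1.77 to 1.93). Adam17, the TNF-converting enzyme that also releases ligands of the epidermal growth factor receptor, had 2610 and 4311, 1.80-fold higher (1.71 to 1.89). Both counting intervals lie above 1 and end short of 2-fold. Iah1 on the opposite strand, with a log2 ratio of 0.41, overlaps 4.35% of the exon length of Adam17.

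Adam8, which is expressed in myeloid cells as well as in stroma, had 461 and 600 counts and a log2 ratio of 0.50 (0.32 to 0.68). Of the myeloid markers, Lyz2 had 3836 and 5227 counts and a log2 ratio of 0.57, Csf1r stood at 0.10, Adgre1 at -0.07, Ptprc at 0.14, Cd68 at -0.56 and Itgam at 0.96, and their part in the level of Adam8 was not tested. Adam9, the most abundant member, had 10041 and 9836 counts and a log2 ratio of 0.09 (0.05 to 0.13). Adam10, the main sheddase of Notch receptors and of cadherins, had 4764 and 4471 and a log2 ratio of 0.03 (-0.03 to 0.09), and total-count scaling put it at -0.04. Levels of Adam9 and Adam10 thus differed little, at 1.06-fold and 1.02-fold.

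The other catalytic ADAM genes were below 0. Adam15 had 4143 and 3320 counts and a log2 ratio of -0.20 (-0.27 to -0.13). Adam12, known for its expression in activated mesenchymal cells, had 7942 and 6145 and a log2 ratio of -0.25 (-0.30 to -0.20). Adam33, a gene of mesenchymal cells associated with asthma, had 2124 and 1322 and stood at -0.56 (-0.66 to -0.46).

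Of the ADAM genes whose proteins have no working catalytic site and act in cell adhesion, Adam22 was the only one past 2-fold. Adam22, a receptor for the secreted LGI proteins, had 223 vehicle counts and 94 after IL-17A, 2.18-fold lower (1.71 to 2.81), an interval that reaches inside 2-fold. Adam23 had 3719 and 2995 counts and a log2 ratio of -0.19 (-0.26 to -0.12). Adam11 had 71 and 63 counts and an interval that held 1.

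The remaining ADAM genes are known mostly from testis and sperm, and all 6 in the table were under the minimum. Adam5 had 13 vehicle counts and 12 after IL-17A, Adam1a 12 and 10, Adam32 7 and 5, Adam4 2 and 3, Adam3 2 and 0, and Adam18 0 and 0. Adam1a shares 63.7% of its exon length with another gene model on its own strand, so its counts are uncertain. Adam18, Adam3, Adam5, Adam32 and Adam9 follow each other on chromosome 8 on the same strand, with 0.8 kb between Adam32 and Adam9. Adam9, at 24949611 to 25016927, held 10041 vehicle counts, while its 4 neighbours in this row held between 0 and 13.

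**Figure D4:**
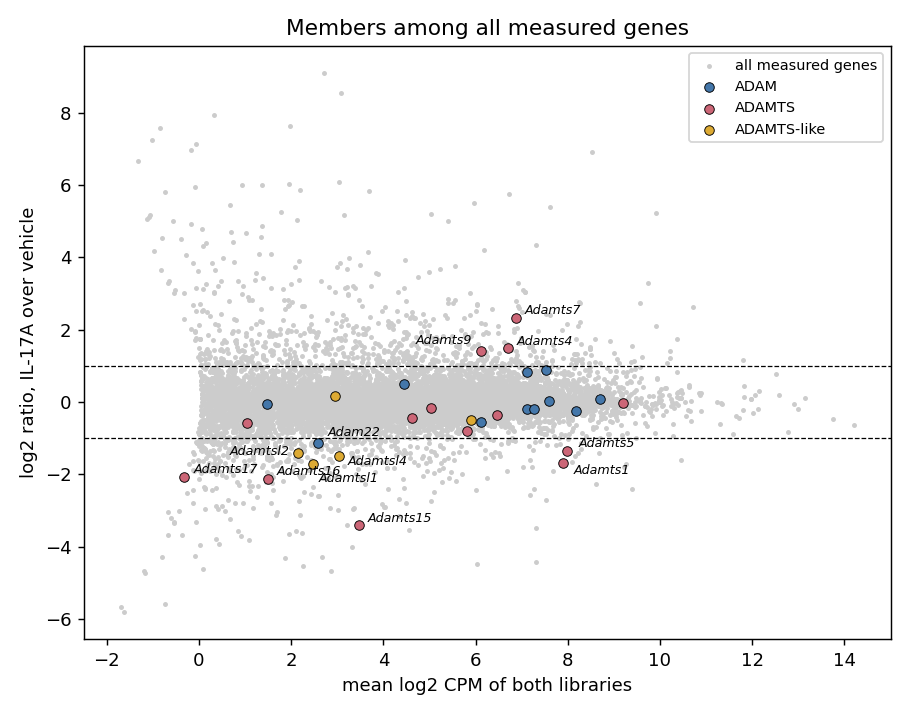
Log2 ratio of IL-17A over vehicle (y axis) against the mean log2 CPM of both libraries (x axis) for all 13534 measured genes in grey and the 30 measured members in colour; dashed lines mark 2-fold, and a gene with 0 counts in a library is drawn at 3 counts. Adamts1 and Adamts5 lie farthest to the right of the members past 2-fold, and of the 3 above the upper line Adamts7 stands highest.

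Among the genes that bring ADAM proteases to the cell surface, 1 of 7 measured was at least 2-fold higher and 0 lower, beside 5.19% and 3.69% of all measured genes, counts too small to set the list apart. Rhbdf2, which encodes the iRhom that carries the Adam17 protein to the surface and controls its activity, had 559 vehicle counts and 1076 after IL-17A, 2.09-fold higher (95% counting interval 1.89 to 2.32). Its relative Rhbdf1 stood at 0.16 on the log2 scale, and Frmd8, which stabilises the iRhom complex, at 0.37. Tspan14, a tetraspanin partner of the Adam10 protein, stood at -0.20. The median of this list was 0.16, beside 0.00 for all measured genes. In the IL-17A library the carrier Rhbdf2 was thus 2.09-fold higher, while the membrane protease Adam17, at 1.80-fold higher, stayed within 2-fold. A link between them was not tested.

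Of the enzymes that remove propeptides or glycosylate thrombospondin repeats, 1 of 6 passed 2-fold upwards and 1 downwards, beside 5.19% and 3.69% of all measured genes, and the median log2 ratio was 0.33, beside 0.00. Pcsk5, a proprotein convertase, had 2367 and 5816 counts, 2.67-fold higher (2.55 to 2.80). Pcsk6, another convertase, had 1516 and 156, 8.94-fold lower (7.58 to 10.6). Furin, the convertase that activates many ADAM and ADAMTS proteins, stood at 0.74, Pofut2, which adds O-fucose to the repeats, at 0.27, and B3glct, which extends that sugar, at 0.35.

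The inhibitors differed in direction. Timp3, the tissue inhibitor of metalloproteinases known to block Adam17, Adamts4 and Adamts5 proteins, had 28046 and 7815 counts and was 3.30-fold lower (3.22 to 3.39), while Timp1 had 5246 and 16245 and was 3.37-fold higher (3.26 to 3.47). Timp2, Reck and the clearance receptor Lrp1 were within 2-fold, at -0.14, -0.44 and 0.08 on the log2 scale.

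Of 31 measured genes whose proteins are known to be shed by ADAM proteases, 10 passed 2-fold upwards and 4 downwards, beside 5.19% and 3.69% of all measured genes, and the median log2 ratio was 0.51, beside 0.00. The list was written with earlier results of these data known, so these values describe it and do not test it. The highest ratios were those of the membrane chemokine Cxcl16, from 186 to 5529 counts and 32.3-fold higher (27.9 to 37.6), the growth factor Ereg, from 87 to 715 and 8.93-fold (7.14 to 11.3), Icam1 at 6.60-fold and Tnf, from 11 to 59, at 5.83-fold (3.03 to 12.3). Sdc4, Dll1, Tnfrsf1b, Tnfsf11, Csf1 and Il1r2 were between 2.17-fold and 3.10-fold higher. The 4 lower genes were Notch1 at 2.52-fold, Dlk1 at 2.19-fold, Nrg1 at 2.15-fold and the Notch ligand Jag1 at 2.02-fold. App, Lrp1 and Axl, with the highest summed counts on this list among the genes within 2-fold, stood at -0.04, 0.08 and 0.65 on the log2 scale.

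Of 18 measured genes for proteins that ADAMTS proteases cut or ADAMTS-like proteins bind, 1 passed 2-fold upwards, near the 5.19% of all measured genes, and 3 downwards, beside 3.69%. The median log2 ratio was -0.45, beside 0.00. Thbs2, a thrombospondin, was 2.24-fold higher. Fbn2, a microfibril protein, was 6.58-fold lower (6.25 to 6.93), Fmod, a small proteoglycan, 2.44-fold lower, and Ltbp1, a latent TGF-beta binding protein, 2.06-fold lower. Vcan, which encodes versican, had 12129 and 6675 counts and stood at -0.74 (-0.78 to -0.70), a gene named after its value was seen. Col1a1, Col1a2 and Bgn, with the highest summed counts on this list among the genes within 2-fold, stood at -0.64, -0.46 and 0.10. The lists of partners, enzymes, inhibitors and substrates were all written with earlier results of these data known. They hold transcripts, and no cleavage was measured.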

How the data were processed

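Total RNA of 2 fibroblast cultures was made into libraries with an Illumina stranded mRNA kit, per the labels' protocols. The authors deposited raw counts per gene symbol, with STAR, featureCounts and mm10 named in the submitters' processing notes. Their versions, the annotation, the strand setting and the handling of multi-mapping reads are not stated in the labels or file. Library sizes were scaled over all 19674 rows with TMM (edgeR 4.0.16, R 4.3.3). The ratio is IL-17A over vehicle for genes with 50 or more summed counts, its 95% interval comes from the exact Clopper-Pearson bounds on the proportion of a gene's summed counts that fell in the IL-17A library, and a member was called at 2-fold. With 1 library per group no test could be made. TPM used the summed exon length of GENCODE M21 models matched by symbol, for 19273 rows and all 40 members, whatever isoforms the cells used. All measured members are named, and of the lists of partners and substrates those past 2-fold and up to 3 within it with the highest summed counts. Marker and receptor genes are named as checks, beyond this rule. The members and lists were chosen with earlier results of these data known. The calculation was tested on simulated counts. Overlapping gene models were found for 7 measured members. The alternatives were 3 other scalings (one from DESeq2 1.42.0), other minimums and limits, a prior count of 2, calls by the whole interval, and leaving out the ADAMTS-like genes.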

Additional observations from a re-analysis of the deposited data

How the results depend on the processing

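The 3 higher and 9 lower members stayed at these counts under total-count, upper-quartile and DESeq2 scaling, which shifted all log2 ratios by -0.07, -0.04 and -0.00, and with a prior count of 2, and no member changed its call under these 4 settings. A limit of 1.5-fold gave 5 higher and 10 lower, and a limit of 3-fold gave 1 higher and 5 lower. Calls by the whole counting interval gave 3 higher and 7 lower. A minimum of 200 summed counts gave 3 higher and 7 lower of 26 members. A minimum of 10 gave 3 higher and 10 lower of 36, and a minimum of 1 gave 3 higher and 10 lower of 39. With no minimum beyond 1 count the median log2 ratio was -0.19, and over its other alternatives it ran from -0.37 to -0.20. Without the ADAMTS-like genes 3 were higher and 6 lower. Shares over all genes were computed only at the main limit and minimum. The member counts at other limits, minimums and interval calls therefore have no background beside them, and do not show whether the members exceed all genes there. No paired analysis was possible because each group held 1 library. Genes near 50 counts, such as Adamts17, carry wide intervals, and members under it entered only the settings with a lower minimum or none.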
